A study of Mus musculus with 12 samples.

Results

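Sialyltransferases are the Golgi enzymes that place sialic acid at the end of the sugar chains of proteins and lipids, and 9 of their genes were followed here through the maturation of CD4 SP thymocytes, from SP1 to SP4. The 9 genes are St8sia6, St8sia1, St8sia4, St3gal1, St3gal2, St3gal4, St3gal6, St6gal1 and St6galnac4, out of 18193 genes that had a probe set of their own, and the annotation of the array gave them 23 of its 45037 probe sets. They were chosen with their levels in these arrays known, above all the level of St8sia6 that increased from SP1 to SP4. For this reason their values are a description and carry no test, and no p-value is given for them.

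Total RNA of CD4+CD8-CD25-NK1.1- thymocytes, sorted from pooled thymi of untreated C57BL/6 mice 6 to 8 weeks old, was measured on 12 arrays, 3 biological replicates for each subset. SP1 was Qa-2-6C10+CD69+, SP2 was Qa-2-6C10-CD69+, SP3 was Qa-2-6C10-CD69- and SP4 was Qa-2+6C10-CD69-. CD69 is an early activation antigen, 6C10 is an antibody epitope on immature thymocytes, and Qa-2 is a class Ib MHC molecule that appears late in thymic maturation. The study orders the subsets as successive stages. Its account of the sort says that mature Qa-2+ T cells returning to the thymus were not removed from SP4, and that they may be a small contamination of it. All values are intensities on the linear scale of the deposited table, in which the median array value was between 30.5 and 32.8, and precision is limited by the number of arrays. The main differences between arrays followed the replicate number and not the subset: the first principal component held 56.8% of the variance and set replicate 3 apart. The second held 13.2% and placed SP1 at one end and SP4 at the other, with SP2 and SP3 between them and overlapping.

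The identity of the sorted cells was read from Cd4, Cd3e, Cd3g, Cd69 and Il2ra. Cd3e had means from 1111 to 1286 in the 4 subsets and Cd4 from 650.0 to 774, while Il2ra, which encodes CD25, stayed between 42.5 and 64.7. Cd69 had a mean of 776 ± 188 in SP4, which was gated as CD69-, against 818 ± 322 (SD, n = 3) in SP1. Cd8b1 was present in spite of the CD8- gate, with means of 1067, 301, 1813 and 565 from SP1 to SP4.

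Sialyltransferases are named for the bond they make and the sugar they act on. ST3Gal and ST6Gal enzymes link sialic acid to galactose, ST6GalNAc enzymes link it to N-acetylgalactosamine, and ST8Sia enzymes add it to another sialic acid, which makes disialyl and polysialyl chains. On T cells these terminal sugars set which lectins can bind, and O-glycans without sialic acid, which bind peanut agglutinin, are a classical mark of cortical as against mature thymocytes. In RNA from a sorted population, fewer cells that express a gene and less of its RNA per cell cannot be told apart.

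St8sia6 is shown first with the sequence just before its start, since it was the member whose level rose without overlap at every step. The window lies at chr2:13793521-13793770 on the minus strand of GRCm38.p6 and is the RefSeq promoter of the gene without its transcribed bases, while the gene model in the same tables extends further upstream than this start. Capitals mark the single match to GGGTG, the reverse complement of CACCC, a box bound by KLF factors, 49 to 45 bases before the start.
St8sia6: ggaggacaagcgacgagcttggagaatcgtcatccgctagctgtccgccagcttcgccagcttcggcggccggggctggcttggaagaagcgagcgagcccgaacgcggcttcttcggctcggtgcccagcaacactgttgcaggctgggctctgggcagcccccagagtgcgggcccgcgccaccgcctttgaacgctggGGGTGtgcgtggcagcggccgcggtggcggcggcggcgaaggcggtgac
The window held no match to TGTTTAC, a FOXO motif, or to CANNTG, the E-box, on either strand. Over all 32851 mouse promoter windows of 250 bases, 52% held CACCC, 3.17% the FOXO motif and 66.2% an E-box, and as the window held no other match, none overlapped the GGGTG. GC content was 70.8%, against a median of 52.4% over all windows. RefSeq windows were at hand for 7 of the 9 members, 10 windows in all. The KLF box was in 8 of the 10, an E-box in 5 and the FOXO motif in 0.

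St8sia6, which adds α2,8-linked sialic acid mainly to O-glycans and makes ligands of the inhibitory receptor Siglec-E, was low in SP1 and higher in each later subset. Its probe set of highest mean, 1456147_at, read 101, 107 and 54.7 in SP1, 182, 212 and 195 in SP2, 269.7, 360.2 and 379.7 in SP3 and 812, 639.8 and 657 in SP4, for replicates 1, 2 and 3 in turn. Every array of a subset lay above every array of the subset before it, and SP1 replicate 3 was the lowest of the 12. The means were 87.4 ± 28.5, 196 ± 14.9, 337 ± 58.7 and 703 ± 95.0 (SD, n = 3) from SP1 to SP4, so that the SP4 mean was 8.04 times that of SP1. On the scale of log2(intensity + 16), which understates the change of low values, differences are given with the SE of the fit without the replicate block. The difference was 1.08 ± 0.23 (SE) from SP1 to SP2, 0.72 ± 0.23 from SP2 to SP3, 1.03 ± 0.23 from SP3 to SP4 and 2.83 ± 0.23 from SP1 to SP4. The gain was thus spread over all 3 steps.

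The other probe sets of St8sia6 gave the same order. Probe set 1438566_at read 29.1, 55.3 and 41.1 in SP1, 62.3, 65.8 and 64.9 in SP2, 94.6, 98.2 and 126 in SP3 and 217, 265 and 239 in SP4. Probe set 1456440_s_at read 50.2, 56.8 and 38.3 in SP1, 77.2, 81.5 and 122 in SP2, 155, 167 and 281 in SP3 and 392, 394 and 472 in SP4. Again no adjacent subsets overlapped in either. From SP1 to SP4 the log2 difference was 2.17 ± 0.18 by the first and 2.76 ± 0.24 by the second, and the 3 probe sets correlated with each other between 0.94 and 0.97 over the 12 arrays, which share subsets and replicate numbers.

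**Figure D1:**
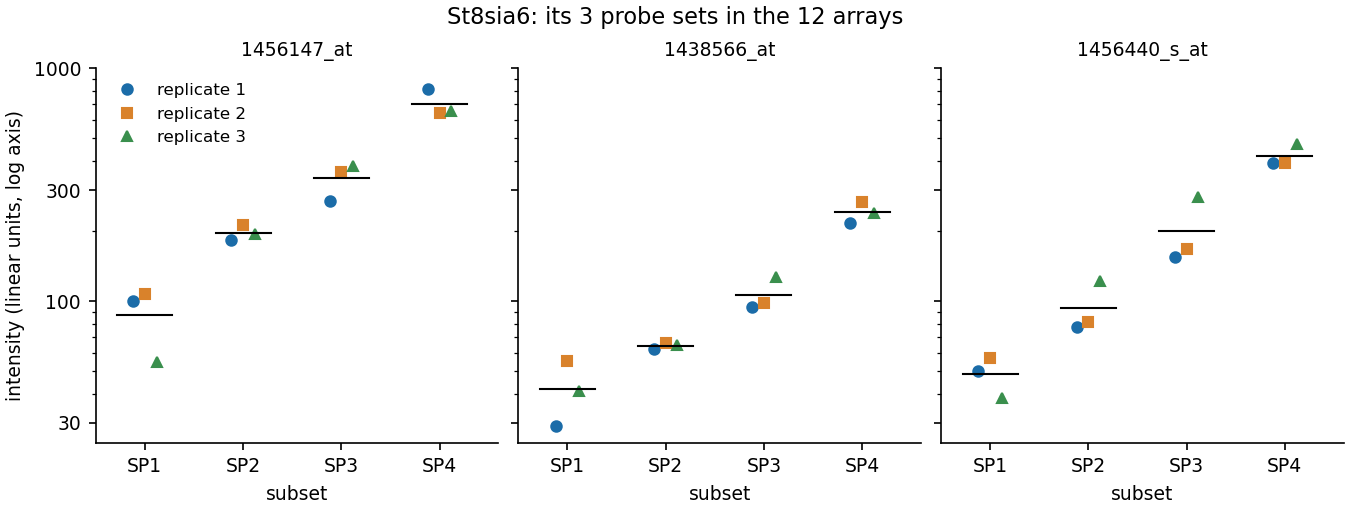
Intensity of the 3 St8sia6 probe sets in the 12 arrays (linear units on a log axis), by subset, with 1 symbol per replicate number and a line at the mean of each subset. In all 3 panels each subset lies above the one before, and the SP4 mean of 1456147_at is 703 against 87.4 in SP1.

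Such a pattern was rare in the whole table. The mean rose at every step in 1244 of 18193 genes, 6.84%, and without overlap at any step in 14, 0.077%. The 14 were Adgre5, Dnah8, Gucd1, Igfbp4, Il17ra, Itgb7, Man1c1, Ms4a6b, Oas1a, Pqlc3, Rasa3, S1pr4, Tmem71 and St8sia6 itself. St8sia6 was followed with this pattern known, so its place among the 14 is no finding of its own. Familiar T cell genes of this set are S1pr4, a receptor for sphingosine 1-phosphate, and Itgb7, the β7 integrin chain.

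Over the 12 arrays the genes whose log2 level was most like that of St8sia6, out of 7182 others with a mean intensity of 100 or more, were Tmem71 (r = 0.98), Rasa3 (r = 0.98), Ms4a6b (r = 0.97), Il17ra (r = 0.97) and Amigo2 (r = 0.97). Rasa3 encodes a GTPase activating protein for Ras and Rap1, Il17ra a chain of the IL-17 receptor and Amigo2 an adhesion molecule. Their means in SP1 and SP4 were 205 and 1193 for Tmem71, 256 and 961 for Rasa3, 1282 and 4822 for Ms4a6b, 635 and 1200 for Il17ra, and 53.0 and 216 for Amigo2. The most opposite were Lcmt1 (r = -0.95), a methyltransferase of protein phosphatase PP2A, Acot7 (r = -0.93), an acyl-CoA thioesterase, Slc35b1 (r = -0.92), a transporter of the endoplasmic reticulum, Rasl11b (r = -0.91) and C1qtnf12 (r = -0.91). In all, 64 genes reached an r of 0.9 and 193 an r of 0.8. These are descriptions, since the arrays of a subset move together and other genes also change over the same 4 stages.

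The summed markers of innate-like and of activated or memory T cells were also highest in SP4. The sum of regulatory T cell markers, given further below, reached its highest value in SP2. The summed intensity of 11 measured markers of innate-like T cells, NKT cells included, was 341 to 754 in SP1, 417 to 638 in SP2, 590.0 to 785 in SP3 and 2299 to 3181 in SP4. Of these 11 genes, 8 rose from SP1 to SP4 by limma at an adjusted p under 0.05, a rule that 1.22% of all genes met in this direction, and the median log2 difference was 1.64, against -0.01 over all genes. Among their defining genes, Tbx21 had means of 26.4, 17.9 and 27.9 in SP1 to SP3, below the median probe set mean of 33.1, and 117 in SP4, while Zbtb16, the transcription factor PLZF, went from 25.2 and 27.3 in SP1 and SP2 to 80.6 in SP3 and 264 in SP4. The sum of 6 measured markers of activated or memory T cells was 585 to 1178 in SP1, 567 to 1225 in SP2, 622 to 944 in SP3 and 1583 to 1972 in SP4, and 1 of them passed the test from SP1 to SP4 with a list median of 1.28. The part of these cells in the SP4 level of St8sia6 was not tested.

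St8sia1, the GD3 synthase of gangliosides, and St8sia4, a polysialyltransferase, are the other ST8Sia members. Neither showed steps without overlap like those of St8sia6. St8sia1 read 359.6, 509 and 961 in SP1, 453, 423 and 1153 in SP2, 379, 733 and 1130.1 in SP3 and 579, 674 and 1148 in SP4. The means were 610, 676, 747 and 800 from SP1 to SP4, a rise at every step as in 6.84% of all genes. By this probe set, 1455695_at, replicate 3 was the highest array in every subset, at 1.83 to 2.63 times the mean of replicates 1 and 2. The subsets overlapped in every comparison. The r of St8sia1 with St8sia6 was 0.23 over the 12 arrays, and 0.70 once the mean of each replicate number was subtracted. The log2 difference from SP1 to SP4 was 0.44 ± 0.49 (SE), and the SE with the replicate number as a block was 0.17, with SP4 above SP1 in 3 of 3 replicates. Its dimmer probe sets, 1419694_at and 1419695_at, gave 0.07 ± 0.29 and 0.27 ± 0.26. By 1419694_at replicate 3 was instead the lowest array in every subset, at 0.51 to 0.73 times the mean of replicates 1 and 2. By 1419695_at it was the highest, at 1.34 to 1.72 times. The r of 1455695_at over the 12 arrays was -0.81 with 1419694_at and 0.83 with 1419695_at.

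St8sia4 read 609, 779 and 1143 in SP1, 644, 801 and 913 in SP2, 551, 808 and 1061 in SP3 and 1017, 936 and 1251 in SP4. The SP4 arrays were above the SP3 array of the same replicate number in 3 of 3 pairs, with a log2 difference of 0.44 ± 0.28, but the subsets overlapped. Its other probe set, 1430391_a_at, went the other way from SP1 to SP4, at -0.46 ± 0.35 against 0.37 ± 0.28, and was lower in SP4 than in SP1 in 3 of 3 pairs. With the mean of both probe sets the SP4 minus SP1 difference was -0.05, so the direction of St8sia4 depends on the probe set read.

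Among the ST3Gal members, which cap galactose, St3gal2 differed most and in the opposite direction to St8sia6. This enzyme acts on O-glycans and on gangliosides. It read 163, 230.5 and 178 in SP1, 199, 415 and 120.3 in SP2, 77.0, 127 and 83.4 in SP3 and 90.1, 93.6 and 77.2 in SP4. All SP4 arrays lay below all SP1 arrays, as they did in 6.89% of all genes, and SP2 was spread widely, with replicate 2 at more than 3 times the value of replicate 3. The means were 190.4 ± 35.5, 245 ± 153, 95.7 ± 27.0 and 87.0 ± 8.61 (SD, n = 3) from SP1 to SP4. The drop lay between the CD69+ and the CD69- subsets: the log2 difference was 0.19 ± 0.34 (SE) from SP1 to SP2, -1.09 ± 0.34 from SP2 to SP3 and -0.09 ± 0.34 from SP3 to SP4. Without SP2 replicate 2 the first of these was -0.26 and the second -0.64, so the order of SP1 and SP2 rests on that array. Its probe sets 1421890_at and 1421892_at gave -0.79 ± 0.46 and -1.01 ± 0.29 from SP2 to SP3, and in 3 of 3 replicates SP3 was below SP2 by each of the 3 probe sets. From SP1 to SP4, 1421890_at and 1421892_at gave -0.78 ± 0.46 and -0.73 ± 0.29, and by both of them SP1 and SP4 overlapped.

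St3gal1, the enzyme that caps the core 1 O-glycan, was higher in SP2 than on either side of it. It read 60.4, 73.8 and 86.4 in SP1, 94.6, 102 and 99.3 in SP2, 58.5, 67.5 and 91.4 in SP3 and 78.3, 76.6 and 98.9 in SP4. All SP2 arrays lay above all arrays of SP1, as in 4.92% of all genes, and above all arrays of SP3, as in 3.66%. The differences were small, at 0.37 ± 0.17 from SP1 to SP2 and -0.39 ± 0.17 from SP2 to SP3. Its other probe set, 1441216_at, lacked this peak and read from 52.8 in SP1 to 89.0 in SP4. By this probe set SP4 was above SP1 without overlap, as in 7.38% of all genes. The r between both probe sets was -0.08 over the 12 arrays.

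St3gal4 and St3gal6, which cap N-acetyllactosamine and contribute to selectin ligands, stayed low and without a steady direction. St3gal4 read 79.4, 79.5 and 31.5 in SP1, 72.4, 87.0 and 39.6 in SP2, 83.6, 62.5 and 22.4 in SP3 and 85.4, 101 and 33.1 in SP4. Replicate 3 was the lowest array in each subset, at 0.31 to 0.50 times the mean of the other two, and the subsets overlapped in every comparison. St3gal6 read 62.5, 83.1 and 79.0 in SP1, 89.0, 113 and 61.1 in SP2, 56.2, 66.6 and 56.7 in SP3 and 102, 73.0 and 60.8 in SP4. SP3 had the lowest mean, 59.8 ± 5.85, and its difference from SP2 was -0.42 ± 0.21 with overlap. Probe set 1449078_at gave -0.41 ± 0.17 from SP2 to SP3 and 0.42 ± 0.17 from SP3 to SP4. Both were without overlap, as in 3.66% and 4.74% of all genes in those directions. Probe sets 1447841_x_at and 1454246_at gave -0.03 ± 0.18 and -0.11 ± 0.42 from SP2 to SP3, with overlap. From SP3 to SP4 they gave 0.05 ± 0.18 and 0.16 ± 0.42, also with overlap. The remaining probe set, 1443740_at, stayed between 2.59 and 3.73 and was the only member probe set whose mean was below the median of all probe sets.

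St6gal1, which makes the α2,6-sialylated N-glycans bound by CD22, followed a course like that of St3gal2. Its probe set of highest mean, 1420928_at, read 2019, 2260.3 and 3381 in SP1, 2323, 4150.1 and 2669.7 in SP2, 1241, 2096 and 2022 in SP3 and 1965, 1717 and 1914 in SP4. All SP3 arrays lay below all SP2 arrays, as in 3.66% of all genes. All SP4 arrays lay below all SP1 arrays, as in 6.89%, while SP1 and SP2 overlapped. The means were 2553 ± 727, 3048 ± 970.5, 1786 ± 474 and 1865 ± 131 (SD, n = 3) from SP1 to SP4. The log2 difference was -0.76 ± 0.27 (SE) from SP2 to SP3 and -0.42 ± 0.27 from SP1 to SP4. The latter was -0.20 without SP1 replicate 3.

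The second St6gal1 probe set, 1420927_at, stood apart in replicate 3. It read 284, 312 and 56.9 in SP1, 370.3, 700.4 and 33.3 in SP2, 180.1, 180.3 and 27.3 in SP3 and 252, 194 and 29.6 in SP4. Replicate 3 was at 0.06 to 0.19 times the mean of replicates 1 and 2, whereas by 1420928_at it was at 0.82 to 1.58 times that mean. The mean log2 shift of replicate 3 was -2.52, larger in size than in 99.9% of all probe sets. Within each replicate number the order of subsets was nevertheless close in both probe sets: their r over the 12 arrays was 0.13 as measured and 0.92 once the mean of each replicate number was subtracted. What sets replicate 3 apart for this probe set was not tested.

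**Figure D2:**
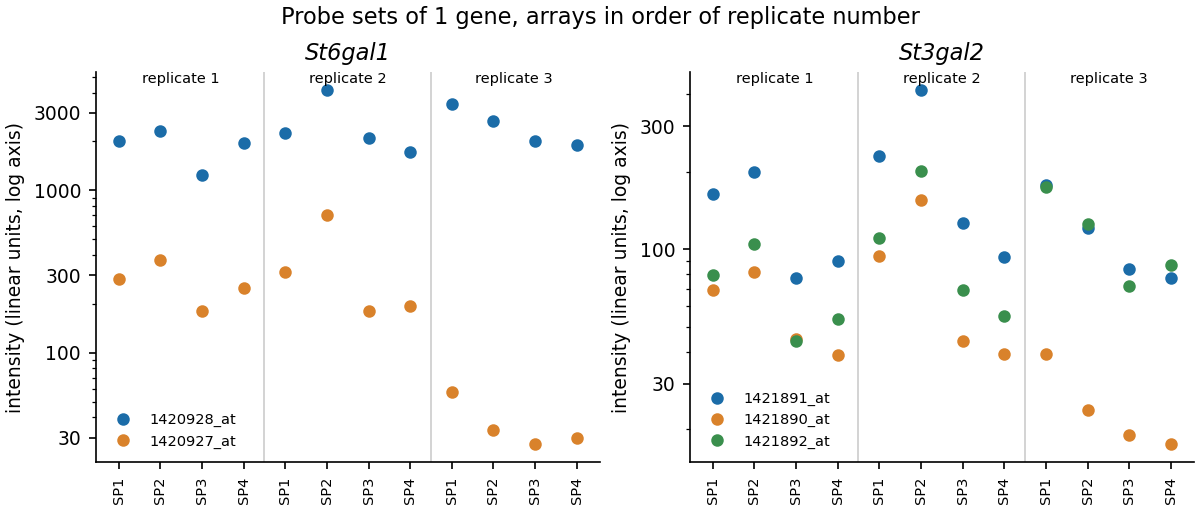
Intensity (linear units on a log axis) of the 2 St6gal1 and the 3 St3gal2 probe sets in each array, with arrays in order of replicate number and then of subset. St6gal1 probe set 1420927_at falls in replicate 3 to between 27.3 and 56.9, while 1420928_at does not, and within a replicate number SP3 lies below SP2 for all 5 probe sets.

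St6galnac4, which adds sialic acid to the already sialylated core 1 O-glycan, did not separate any subsets. It read 109, 99.9 and 68.0 in SP1, 77.6, 83.6 and 73.4 in SP2, 91.2, 79.1 and 57.1 in SP3 and 78.4, 121 and 57.9 in SP4. The means were between 75.8 and 92.4, the subsets overlapped in all 4 comparisons, and the log2 difference from SP1 to SP4 was -0.12 ± 0.24, with 0.16 ± 0.17 by its other probe set.

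**Figure D3:**
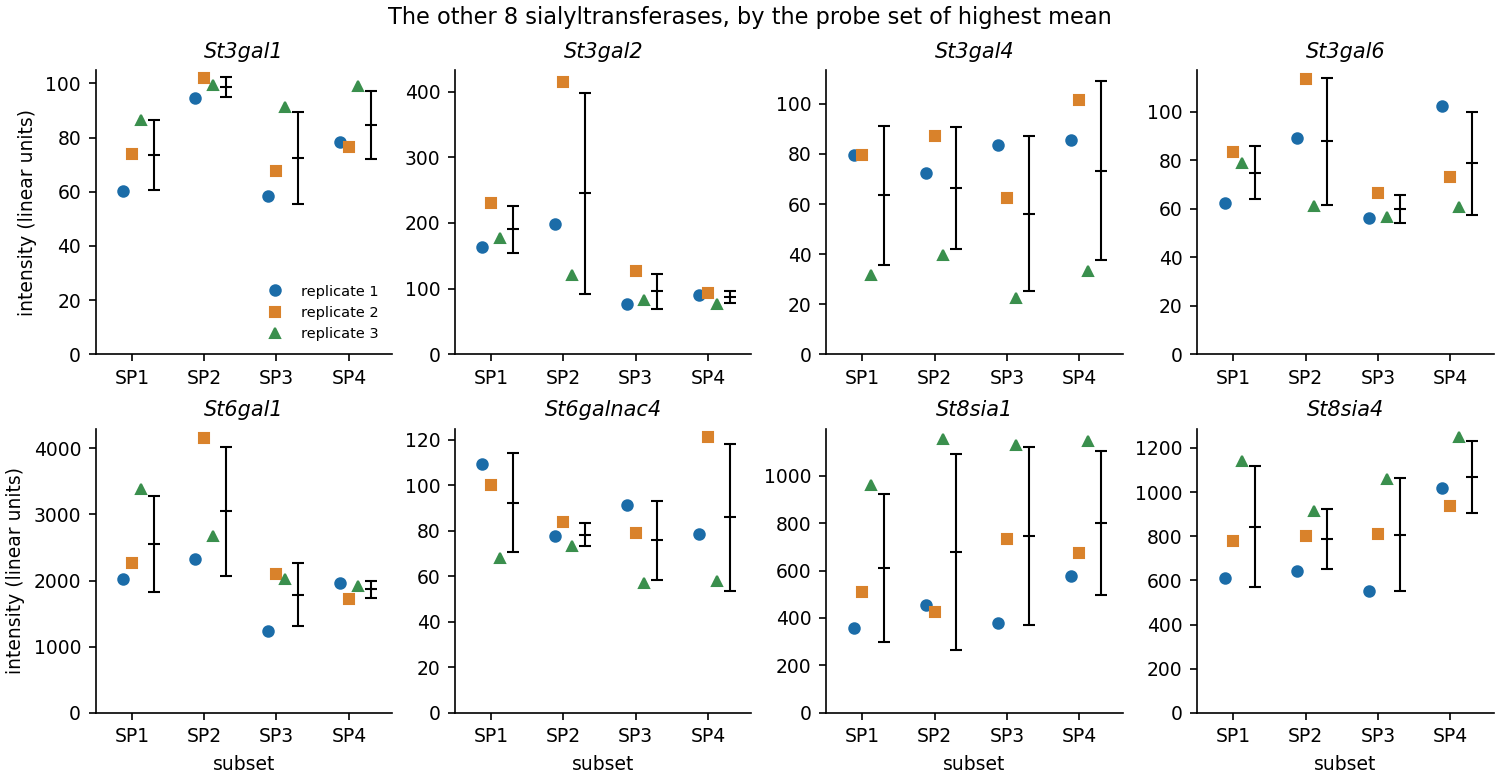
Intensity (linear units) of the 8 members other than St8sia6, by subset and by the probe set of highest mean, with 1 symbol per replicate number and the mean with 1 SD beside them (n = 3). St3gal2 and St6gal1 are lower in SP3 and SP4 than in SP2, St8sia1 replicate 3 is the highest array of every subset, and St3gal4 replicate 3 the lowest.

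Set side by side, the members fell into different courses. St8sia6 alone was without overlap above the previous subset at each step, a pattern that 4.92% of genes had from SP1 to SP2, 3.3% from SP2 to SP3 and 4.74% from SP3 to SP4. St3gal2 and St6gal1 had higher means in SP1 and SP2 than in SP3 and SP4, and had an r of 0.79 with each other over the 12 arrays and of 0.92 with the replicate means subtracted. St8sia6 had an r of -0.62 with St3gal2 and -0.48 with St6gal1. The other 6 genes had SP4 minus SP1 differences between -0.12 and 0.44. The median log2 difference of the 9 genes was 0.14 from SP1 to SP4, 0.17 from SP1 to SP2, -0.25 from SP2 to SP3 and 0.20 from SP3 to SP4, against -0.01, 0.01, 0.00 and -0.02 over all genes.

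By the rule of an adjusted p under 0.05 in limma, 1 of the 9 members was past the threshold from SP1 to SP4, St8sia6, where 1.22% of all genes were past it as higher and 0.297% as lower. With the replicate number as a block there were 2, St8sia6 as higher and St3gal2 as lower, where 4.16% and 1.9% of all genes were past it. From SP3 to SP4 there were 0 without the block, where 0.225% of genes passed, with 1 at an unadjusted p under 0.05 against 5.34% of all genes, and 1, St8sia6, with it, where 1.5% passed. From SP1 to SP2 and from SP2 to SP3 no member passed by limma in either fit, with 1 and 4 at an unadjusted p under 0.05 without the block, against 3.04% and 3.41% of all genes, and the share of all genes was 0% and 0% without and 0.0055% and 0.28% with the block. Since the members were picked on these values, nothing is read from the counts.

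**Figure D4:**
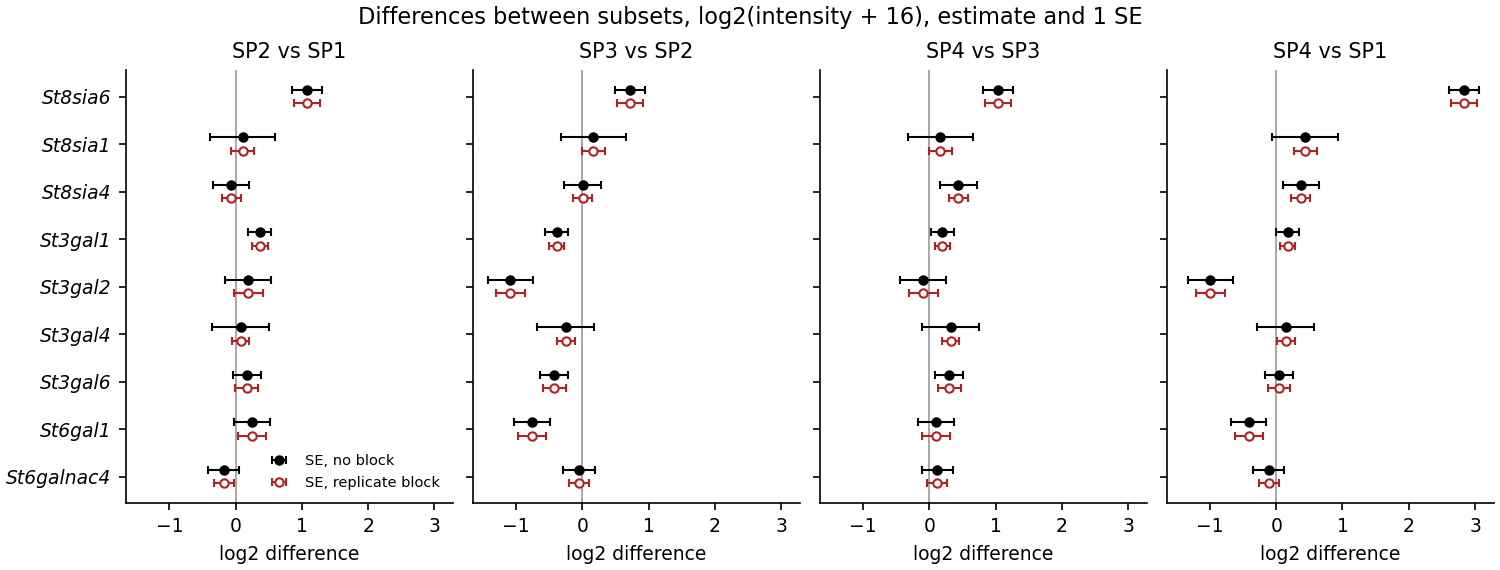
Difference between subsets on the log2(intensity + 16) scale for the 9 members, each with 1 SE, from the fit without the replicate block (filled) and with it (open), in 1 panel per comparison. St8sia6 lies above 0 in all 4 panels and reaches 2.83 for SP4 minus SP1, and St3gal2 lies at -1.09 for SP3 minus SP2.

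The course of St3gal2 and St6gal1 was set beside the markers of other cells. The sum of 5 markers of regulatory T cells was 2178 to 3570.4 in SP1, 2842 to 4339.6 in SP2, 1408 to 2306 in SP3 and 2239 to 3760.3 in SP4. Most of that sum came from Ikzf2 and Tnfrsf18, while Foxp3, the defining gene of these cells, had means of 20.4, 30.7, 39.3 and 89.1 from SP1 to SP4. The sum of 6 measured B cell markers was 1048 to 5116 in SP1, 933 to 2183 in SP2, 1697 to 2973 in SP3 and 1648 to 4834 in SP4. The sum of 11 measured markers of cortical double positive thymocytes was 1391 to 8159 in SP1, 1336 to 2906 in SP2, 2662 to 14234 in SP3 and 1445 to 3839.9 in SP4, with the highest value in SP3 replicate 1 and all 4 arrays of replicate 3 at or below 2662. The part of regulatory T cells, B cells and double positive cells in these members was not tested.

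The other genes of the sialic acid pathway were not members and were tested. Of 55 listed, 52 had a probe set of their own. From SP1 to SP4, 2 of the 52 rose, 0 fell and 50 did not pass, where 1.22% of all genes rose and 0.297% fell. The median log2 difference was 0.08, against -0.01 over all genes. At an unadjusted p under 0.05 were 10 of all 52, against 9.02% of all genes. With the replicate number as a block 10 rose and 1 fell, against 4.16% and 1.9% of all genes. From SP3 to SP4, 2 rose and 0 fell in both fits, where 0.214% and 1.21% of all genes rose. From SP1 to SP2 and from SP2 to SP3, 0 passed by limma in either fit, with 1 and 3 at an unadjusted p under 0.05 without the block and 9 and 13 with it. The shares of all genes at that p were 3.04% and 3.41% without the block and 8.47% and 9.07% with it.

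The gene with the lowest adjusted p was B4galt5, the main lactosylceramide synthase, which builds the glycolipid from which St3gal5 and then St8sia1 make gangliosides. It read 82.5, 74.0 and 75.8 in SP1, 100.3, 103 and 120.1 in SP2, 114, 146 and 158 in SP3 and 163, 206 and 206 in SP4. All arrays of each subset were above all arrays of the subset before, except that SP2 and SP3 overlapped. From SP1 to SP4 it rose by 1.15 ± 0.16 (SE) on the log2 scale (adjusted p = 0.00537, limma), higher in 3 of 3 replicates, and it passed in all 12 fits that left out 1 array, with adjusted p from 0.00625 to 0.0343. It did not pass when the 6 arrays of SP1 and SP4 were fitted alone (adjusted p = 0.0657). Its r with St8sia6 was 0.94, at rank 20 of 7182 genes. Its second probe set read from 6.15 to 9.70 and did not show the change.

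Gcnt1, the core 2 O-glycan branching enzyme, was below the median probe set mean of 33.1 in SP1 to SP3 and rose in SP4. It read 9.67, 11.9 and 13.3 in SP1, 9.32, 6.73 and 13.8 in SP2, 7.62, 10.6 and 7.75 in SP3 and 20.0, 35.7 and 45.8 in SP4. All SP4 arrays were above all others, and the log2 difference was 0.82 ± 0.16 from SP1 to SP4 (adjusted p = 0.0367, limma) and 0.98 ± 0.16 from SP3 to SP4 (adjusted p = 0.0469). The first call was lost in 9 of the 12 fits that left out 1 array, with adjusted p up to 0.16, and held without SP2 replicate 2, SP2 replicate 3 or SP4 replicate 1. The second was lost in 9 of the 12 as well, up to 0.263, and held without SP1 replicate 3, SP2 replicate 3 or SP4 replicate 1. Its other probe set, 1449538_a_at, read from 11.5 to 16.4 in all arrays.

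Among the Siglecs, lectins that bind sialic acid, 1 of 8 measured rose from SP3 to SP4, where 0.214% of all genes did, and its call was lost in 11 of the 12 fits that left out 1 array. Siglech, known from plasmacytoid dendritic cells, read 70.3, 83.8 and 33.3 in SP1, 47.8, 32.7 and 33.5 in SP2, 51.3, 31.2 and 51.1 in SP3 and 168, 180.1 and 128 in SP4. It rose by 1.54 ± 0.26 from SP3 to SP4 (adjusted p = 0.0482, limma) and differed by 1.21 ± 0.26 from SP1 to SP4, which passed only with the block (adjusted p = 0.052 without and 0.00434 with it). The call from SP3 to SP4 held without SP1 replicate 3, and in the other fits the adjusted p was up to 0.232. The sum of 7 myeloid and dendritic cell markers was 185 to 622 in SP1, 213 to 309.8 in SP2, 294 to 304 in SP3 and 335 to 806 in SP4, with 3 of the 7 below the median probe set mean, and their part in the level of Siglech was not tested. Siglece, the receptor for ligands that St8sia6 makes, had means from 25.5 to 28.5, below the median probe set mean of 33.1.

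The remaining calls from SP1 to SP4 were made with the replicate block alone. Here and below, each SE is that of the fit without the block, also where it stands beside an adjusted p with the block. Spn, the heavily sialylated CD43, had a log2 difference of 0.91 ± 0.20 (adjusted p = 0.000725 with the block, limma, and 0.0579 without it), and its means went from 277 in SP1 to 532 in SP4. Selplg, which encodes the selectin ligand PSGL-1, differed by 0.65 ± 0.15 (adjusted p = 0.0128 with the block), with means from 1229.8 to 1941. Cmah, the hydroxylase that turns the Neu5Ac donor into the Neu5Gc donor, differed by 0.81 ± 0.19 (adjusted p = 0.00227 with the block), with means of 237 in SP2 and 391 in SP3. All SP4 arrays of these 3 genes were above all SP1 arrays, as in 7.38% of all genes.

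Among the enzymes that build acceptor chains, 5 of 15 measured rose from SP1 to SP4 with the block, Gcnt1 and B4galt5 among them, and 2 without it, against 4.16% and 1.22% of all genes. B4galt1, the galactosyltransferase of N-acetyllactosamine, differed by 0.67 ± 0.27 (adjusted p = 0.0139 with the block, limma) and B4galnt1, the GM2 and GD2 synthase, by 0.62 ± 0.40 (adjusted p = 0.0332 with the block). Ugcg, the first enzyme of glucosylceramide-based glycolipids, differed by 0.86 ± 1.13 (adjusted p = 0.0414 with the block) and had a low replicate 3, at 131 in SP1 against 912 and 964. Without SP1 replicate 3 its difference turned to -0.04. Its probe set 1421268_at gave means of 547, 1019, 599 and 999.7 from SP1 to SP4.

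Of the 11 sialyltransferases that were not members, 0 passed by limma without the block from SP1 to SP4, with 1 at an unadjusted p under 0.05, against 9.02% of all genes. With it, St6galnac3, an enzyme of O-glycans and gangliosides, differed by 0.77 ± 0.41 (adjusted p = 0.00214), and St3gal3 was the one pathway gene that fell, with a difference of -0.52 ± 0.16 (adjusted p = 0.0434). St3gal3 read 96.5, 87.3 and 124 in SP1, 83.6, 82.6 and 101 in SP2, 72.6, 82.6 and 63.6 in SP3 and 58.8, 67.4 and 73.1 in SP4. Its SP4 arrays were thus below its SP1 arrays without overlap, as in 6.89% of all genes. St6galnac3 read 119.8, 116 and 58.3 in SP1, 160.1, 192 and 81.0 in SP2, 125, 168 and 68.5 in SP3 and 229.6, 223 and 96.4 in SP4, with replicate 3 low in every subset. St3gal5, the GM3 synthase, had means from 73.5 to 91.5.

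The supply of the donor CMP-sialic acid did not pass in any of its 5 genes. From SP1 to SP4, Gne, which makes the first precursor and limits the rate of the pathway, differed by 0.34 ± 0.13 (adjusted p = 0.441, limma). Its SP4 arrays were above its SP1 arrays without overlap, as in 7.38% of all genes. By its other probe set, 1455583_at, they overlapped, with means of 67.0 in SP1 and 70.4 in SP4. Nans, the Neu5Ac 9-phosphate synthase, differed by -0.39 ± 0.24 (adjusted p = 0.852) and Nanp, its phosphatase, by -0.10 ± 0.18. Cmas, which activates sialic acid with CMP, differed by 0.08 ± 0.15, and Slc35a1, the transporter that carries the donor into the Golgi, by -0.38 ± 0.23 (adjusted p = 0.846). Removal showed no call either: the lysosomal sialidase Neu1 differed by 0.36 ± 0.19 (adjusted p = 0.756), and Neu3, the plasma membrane sialidase, by 0.12 ± 0.11 with means from 21.6 to 27.5.

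**Figure D5:**
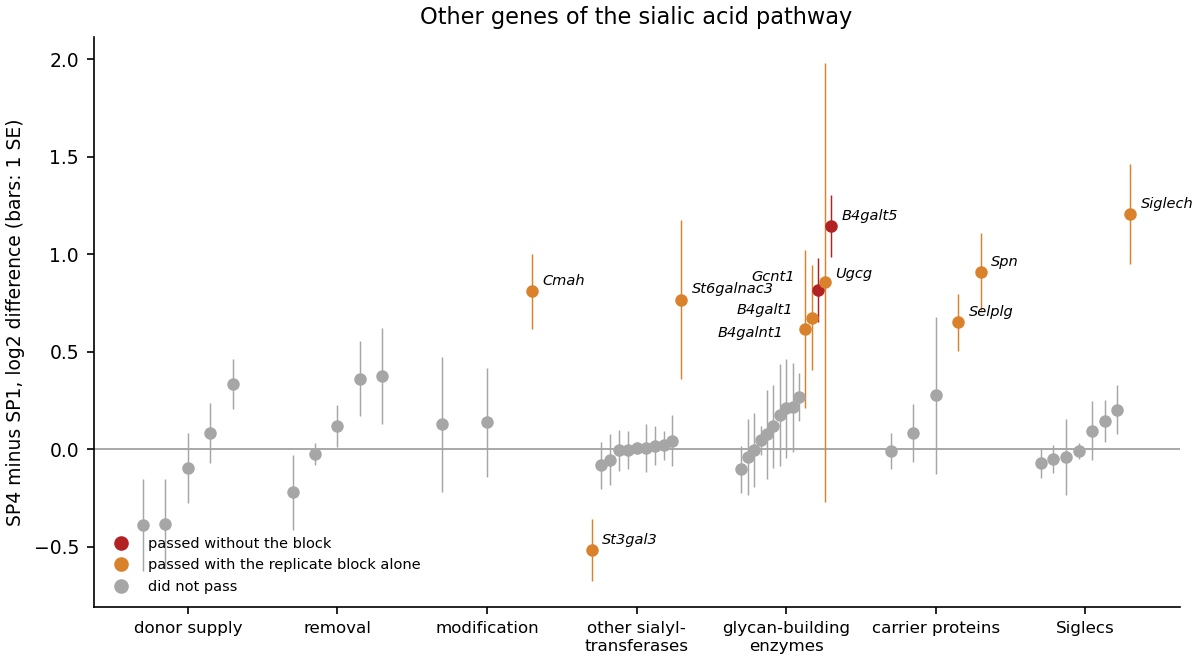
Difference between SP4 and SP1 on the log2(intensity + 16) scale, with 1 SE, for the 52 measured pathway genes that are not members, in groups by role. Named genes passed an adjusted p under 0.05 without the replicate block (B4galt5 at 1.15 and Gcnt1 at 0.82) or only with it, and of the named genes St3gal3 alone lies below 0.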

How the data were processed

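Labelled RNA of 12 samples was measured on the Affymetrix array Mouse Genome 430 2.0. The deposited values are probe set intensity on a linear scale, already background-corrected and normalized between arrays by the authors. The study's methods name GCOS 1.4 for the scans and RMA for normalization, the submitters' notes name MAS5, and which of them made the table stays unknown. No step on the scans was repeated.

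Of 45037 probe sets, 34945 named 1 gene by the platform annotation, 932 several and 9160 none. For each of 18193 genes the brightest probe set on average was read, a cross-hybridizing one (_x_at) only where the gene had none else. An offset of 16 was added before log2. In limma 3.58.1 (R 4.3.3) the 12 arrays shared a model of 1 mean per subset, which left 8 residual degrees of freedom, and eBayes used a mean-variance trend. Benjamini-Hochberg adjustment ran over all probe sets in each of 4 comparisons, and the threshold was an adjusted p of 0.05 at any fold. The fit without the block was tried for SP4 against SP1 on simulated data with known changes and independent noise in each array. That simulation held no shift shared by the arrays of a replicate number, and the block model was not tried on it.

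The members, the gene lists and the tests were chosen with earlier results of these data known. The text names every member, the pathway genes that passed in any comparison with or without the replicate block, all genes of donor supply, Neu1 and Neu3, the 5 genes most like and the 5 least like St8sia6, and the marker lists as wholes. Of the genes that were not members and not on these lists, those without overlap at every step were named after their values were seen, and so were St3gal5, Siglece and the single markers that are given by name. Neu4, Gcnt4, Siglec15 and 5 marker genes had no probe set of their own.

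The labels give biological replicates 1 to 3 for each subset and do not say that a number marks a shared preparation. In the study's figure legends, the arrays of a repeat share the start of their name across all 4 subsets. The legends do not say which repeat is which replicate number. Deviations from subset means correlated between 0.28 and 0.88 for arrays of the same number in different subsets. They correlated between -0.81 and -0.39 for replicate 3 with replicates 1 and 2, and between 0.18 and 0.73 for replicate 1 with replicate 2. These values set replicate 3 apart and do not show that numbers 1 and 2 each pair the samples. The numbers were taken to pair the samples, and a second model took the replicate number as a block, leaving 6 residual degrees of freedom. Alternatives were the offset, quantile normalization, the probe set read, leaving out each array or dim probe sets, no trend, and only the arrays compared. Promoter sequences are those of RefSeq, GRCm38.p6.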

Additional observations from a re-analysis of the deposited data

How the results depend on the processing

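St8sia6 kept its direction in all alternatives, from SP1 to SP4 between 2.58 and 2.98 on the log2 scale when 1 array was left out, and at 2.35 with an offset of 64, which compresses low values. Of the 52 pathway genes tested, the 2 calls from SP1 to SP4 became 11 with the replicate block, 3 with an offset of 64, 3 with quantile normalization, 5 with the mean of all probe sets, 4 without the mean-variance trend, 0 with only the 6 arrays compared, 1 to 3 with 1 array left out, and 4 of the 35 that remained when dim probe sets were left out. The 2 calls from SP3 to SP4 became 0 with an offset of 1, without the trend and with only the 6 arrays compared, 1 with an offset of 64, with quantile normalization and without dim probe sets, 0 to 2 with 1 array left out, and stayed at 2 with the replicate block. Members past the threshold from SP1 to SP4 went from 1 to 2 with the block, and from SP3 to SP4 from 0 to 1 with the block and with the mean of all probe sets. Ugcg reversed to -0.043 from SP1 to SP4 without SP1 replicate 3 and ranged up to 1.73 with other arrays left out. The replicate block turned no direction, since every subset has each replicate number. Apart from fewer arrays or genes in a fit, the cause of these shifts was not tested. With 3 arrays per subset, probe sets near the floor, such as that of Gcnt1, carry little signal over background.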

Other observations

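The genes most like St8sia6 changed in part when the mean of each replicate number was subtracted from its 4 arrays, an alternative chosen after seeing the data. The 5 highest were then Amigo2, Ifi213, Hvcn1, Klhdc1 and Kif1b, all with an r of 0.99, of which Amigo2 had also been among the first 5. Ifi213 is a gene of the interferon-inducible p200 family and Hvcn1 encodes a voltage-gated proton channel. Mean intensity in SP1 and SP4 was 432 and 1875 for Ifi213, 174 and 452 for Hvcn1, 68.2 and 239 for Klhdc1, and 109 and 243 for Kif1b. B4galt5 had an r of 0.97 on this scale and Spn of 0.95.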
